A study of Mus musculus with 4 samples.

Results

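The metallothionein genes Mt1 and Mt2, the gene of their activator, Mtf1, and the zinc exporter gene Slc30a1 were examined in mouse embryonic stem cells (ESCs) of the G3 Terc-/- and WT genotypes. These 4 genes were picked by name from a table of 24116 genes, with their difference between the genotypes in these libraries already known, so their values below describe the libraries and carry no test. All 4 passed the filter on low counts, which left 14896 genes. Terc encodes the RNA template of telomerase, and G3 marks the third generation of mice lacking it, in which telomeres have shortened. Poly(A) RNA was sequenced from 2 libraries of WT ESCs (line N12, whose titles also carry G3) and 2 libraries of G3 Terc-/- ESCs (line F35). All cells were C57BL/6 and were grown on feeder cells in serum medium with LIF, so RNA of feeder fibroblasts could be in every library. A genotype was 1 line, so genotype and line cannot be told apart, and p-values measure only the spread between these libraries. The WT libraries held 22057607 and 22520017 gene counts, against 21898081 and 18047995 for G3 Terc-/-. Of Terc itself, WT libraries held 7 and 2 counts and the G3 Terc-/- libraries 0 each, and counting error alone allows up to 3 counts behind a 0.

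Metallothioneins are small cysteine-rich proteins that bind zinc and copper, and they buffer the free zinc of the cell. MTF1 is a zinc finger transcription factor that senses zinc and binds metal response elements in the promoters of Mt1, Mt2 and Slc30a1. Slc30a1 encodes ZnT1, a plasma membrane transporter that moves zinc out of the cell. Metallothionein genes are also known to respond to oxidative stress, heavy metals and glucocorticoids.

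Mt1 (gene identifier 17748) lies on the plus strand of GRCm38 at chr8:94178883-94180327 and Mt2 (17750) at chr8:94172618-94173567, each with 3 exons and with starts 6.26 kb apart. Mtf1 (17764) lies on the plus strand at chr4:124802549-124849800 with 11 exons. Slc30a1 (22782) lies on the plus strand at chr1:191906697-191913248 with 2 exons. The core of the metal response element, TGCACNC or TGCGCNC, was searched on both strands in the promoter windows of RefSeq (GRCm38.p6), which run from 250 bases before to 50 bases after a start. No match overlapped another. Of 32851 windows, 25.7% held at least 1 match, 7.11% at least 2, 1.97% at least 3 and 0.517% at least 4. The window of Mt2 held 4 matches, that of Mt1 held 3, that of Slc30a1 held 2, those of Mt3 and Mt4 held 1 each, and that of Mtf1 held 0. The stretch before the start of Mt2 is shown because it carries 3 of the 4 matches of that gene, with each core in capitals. It is the plus strand at chr8:94172368-94172617.
Mt2: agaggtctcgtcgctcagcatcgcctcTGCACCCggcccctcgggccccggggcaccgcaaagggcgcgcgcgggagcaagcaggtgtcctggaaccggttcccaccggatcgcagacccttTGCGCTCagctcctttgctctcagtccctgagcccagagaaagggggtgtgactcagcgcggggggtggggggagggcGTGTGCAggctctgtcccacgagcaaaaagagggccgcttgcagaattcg
The remaining sites of Mt1, Mt2 and Slc30a1 are shown to set their cores side by side, again in capitals and on the plus strand, with the position of the core. A core that opens with G is the reverse complement of the searched letters. The windows of Mt1 (before the start, chr8:94178839-94179088) and Slc30a1 (chr1:191906531-191906780) reach into longer transcript models, so these starts lie inside the gene spans given above. All starts are annotated ones, and where transcription begins in these cells was not examined. A site placed after a start may thus still lie before the first transcribed base.
Mt1, 23 bases before the start, chr8:94179066-94179072: cgctgTGCACACtggcg
Mt1, base 3 after the start, chr8:94179091-94179097: agctcTGCACTCcgccc
Mt1, base 21 after the start, chr8:94179109-94179115: aaaagTGCGCTCggctc
Mt2, base 5 after the start, chr8:94172622-94172628: gggtcGTGCGCAggccc
Slc30a1, 43 bases before the start, chr1:191906738-191906744: gttccGAGTGCAaagca
Slc30a1, base 31 after the start, chr1:191906811-191906817: gggccGAGCGCAgtcgc
A match is a description of the letters and was not tied to any binding in these data.

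Mt1 and Mt2 RNA was lower in G3 Terc-/- ESCs, Mtf1 RNA overlapped between the genotypes, and Slc30a1 RNA was slightly higher in G3 Terc-/- ESCs. By the cutoffs of the study for changed genes (a fold change over 2 and p under 0.05), Mt1 and Mt2 were among the lower genes, which made up 3.13% of the genes tested, and neither Mtf1 nor Slc30a1 passed. These values chose the genes, and nothing is read from that count. In bulk RNA, fewer cells of a type and less RNA per cell cannot be told apart.

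The WT libraries held 12906 and 13120 counts of Mt1, against 4518 and 3908 in the G3 Terc-/- pair. In counts per 1000000 (CPM, with TMM-scaled library sizes) these were 591 and 592 in WT, against 204 and 214 in G3 Terc-/- libraries. The genotypes did not overlap, and the WT libraries were nearly identical. The mean level was 591 ± 0.508 CPM (SD, n = 2) in WT and 209 ± 7.39 CPM (SD, n = 2) in G3 Terc-/- ESCs, a log2 fold change of -1.50 with a standard error of 0.05, or 2.83-fold lower. Among 4596 tested genes that averaged 1000 counts or more, Mt1 had the 15th lowest log2 fold change, and among all 14896 tested genes the 157th lowest.

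The WT libraries held 20868 and 22035 counts of Mt2, against 8195 and 7520 in the G3 Terc-/- pair. Its level was 956 and 994 CPM in WT, against 370 and 412 CPM in G3 Terc-/- libraries. The lowest WT library stood above the highest G3 Terc-/- library by more than the gap between replicates of either genotype. The means were 975 ± 27.0 CPM (SD, n = 2) and 391 ± 30.1 CPM (SD, n = 2), a log2 fold change of -1.32 with a standard error of 0.05, or 2.50-fold lower. Mt2 stood 24th by the same order among the 4596 genes and 238th among all tested genes. A non-coding antisense gene, Gm45774, overlaps exons of Mt2 in GENCODE and has no row of its own in the counts used here, and whether the counting used strand is not given in the sources used here.

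Together, Mt1 and Mt2 took 0.153% and 0.156% of the counts of WT libraries, against 0.0581% and 0.0633% for G3 Terc-/-. Per kilobase of exon, with lengths of 549 bases for Mt1 and 511 bases for Mt2, the level of Mt2 was 1.77 ± 0.0475 times that of Mt1 in WT (SD, n = 2) and 2.01 ± 0.0839 times in G3 Terc-/- ESCs (SD, n = 2). The ratio was 1.74 and 1.80 in WT, against 1.95 and 2.07 in G3 Terc-/- libraries, so Mt1 was the more reduced of the pair in both G3 Terc-/- libraries. This difference was not tested.

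The WT libraries held 719 and 617 counts of Mtf1, against 609 and 543 in the G3 Terc-/- pair. Its level was 32.9 and 27.8 CPM in WT, against 27.5 and 29.8 CPM in G3 Terc-/- libraries, and the genotypes overlapped. The log2 fold change was -0.09 with a standard error of 0.08, and it was 0.03 without WT replicate 1. The 3′ end of Mtf1 overlaps an exon of 1110065P20Rik on the other strand, which had 183 and 240 counts in WT, against 158 and 144 counts in G3 Terc-/- libraries.

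The WT libraries held 899 and 1028 counts of Slc30a1, against 1073 and 1038 in the G3 Terc-/- pair. Its level was 41.2 and 46.4 CPM in WT, against 48.4 and 56.9 CPM in G3 Terc-/- libraries. The genotypes did not overlap, but the gap between them was smaller than the gap between the replicates of either. The means were 43.8 ± 3.67 CPM (SD, n = 2) and 52.6 ± 6.01 CPM (SD, n = 2), a log2 fold change of 0.26 with a standard error of 0.08, or 1.20-fold higher. That standard error comes from the edgeR fit, which shares dispersion across genes. The SD of Slc30a1 log2 CPM between replicates, pooled over the genotypes, was larger, at 0.145. Leaving out 1 library at a time moved the log2 fold change between 0.15 and 0.37. An antisense gene, 1700034H15Rik, overlaps exons of Slc30a1 and had 103 and 123 counts in WT, against 145 and 130 counts in G3 Terc-/- libraries.

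Levels per kilobase of exon put the genes in order within a library. In WT ESCs, Mt2 stood at 1907 ± 52.8 and Mt1 at 1077 ± 0.926 CPM per kilobase (SD, n = 2), the 16th and 49th highest levels of 14095 tested genes with a length. Slc30a1 followed at 8.35 ± 0.701, Mt3 at 6.06 ± 0.00533, Mt4 at 3.999 ± 0.528 and Mtf1 at 3.98 ± 0.472 CPM per kilobase (SD, n = 2). Mt4 and Mtf1 changed places between the WT libraries and did not differ beyond their spread. In G3 Terc-/- ESCs, Mt2 stood at 765 ± 59.0 and Mt1 at 381 ± 13.5 CPM per kilobase (SD, n = 2), the 78th and 149th highest levels. Slc30a1 at 10.04 ± 1.15 and Mtf1 at 3.75 ± 0.213 then stood above Mt3 at 1.56 ± 0.764 and Mt4 at 0.648 ± 0.526 CPM per kilobase (SD, n = 2). Mt3, at 2.10 and 1.023, was above Mt4, at 1.020 and 0.275, in both G3 Terc-/- libraries, though their ranges of mean ± SD overlapped. Mt1 and Mt2 thus remained far above the other 4 genes in every library.

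**Figure D1:**
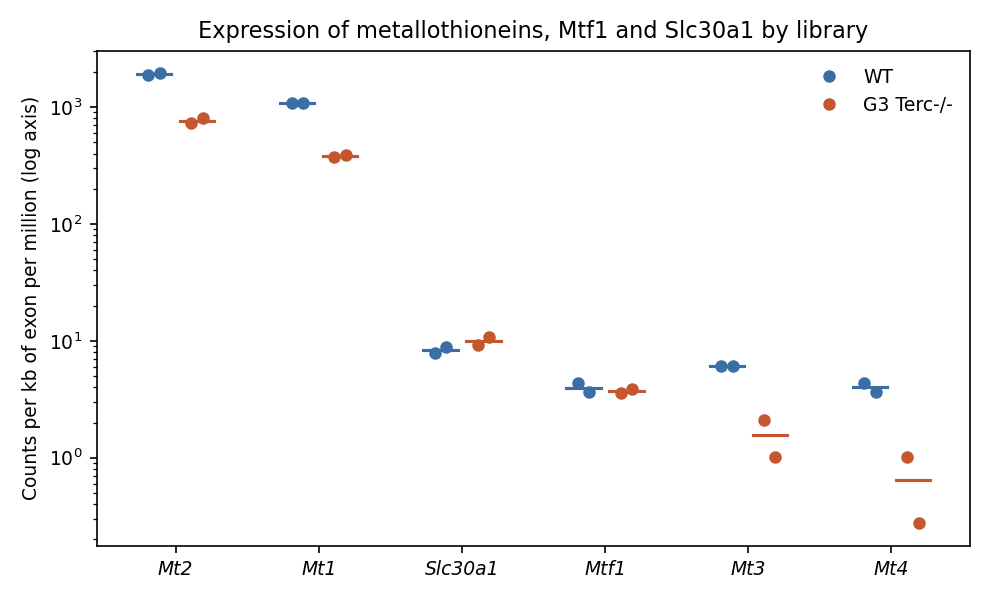
Level in CPM per kilobase of exon (log axis) of Mt2, Mt1, Slc30a1, Mtf1, Mt3 and Mt4, with a point for each of the 4 libraries and a line at the mean of the 2 libraries of a genotype. Mt2 and Mt1 separate the genotypes, at means of 1907 against 765 and 1077 against 381, Mtf1 overlaps, and Slc30a1 lies slightly higher in G3 Terc-/- libraries.

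Mt3 and Mt4, the remaining metallothionein genes of the cluster, were also lower in G3 Terc-/- ESCs, at much lower levels. Mt3 is best known from brain and Mt4 from stratified epithelium. Mt3 (chr8:94152607-94154148) had 71 and 72 counts in WT, against 25 and 10 counts in G3 Terc-/- libraries, and its log2 fold change was -1.91 with a standard error of 0.30 (adjusted p = 1.51e-06). Mt4 (chr8:94137204-94139031) had 38 and 32 counts in WT, against 9 and 2 counts in G3 Terc-/- libraries, and its log2 fold change was -2.53 with a standard error of 0.47 (adjusted p = 1.92e-05). Adjusted p-values here and below are from edgeR's quasi-likelihood test across all genes tested with Benjamini-Hochberg adjustment. Leaving out G3 Terc-/- replicate 1, the deeper of that genotype, gave log2 fold changes of -2.56 for Mt3 and -3.79 for Mt4, and leaving out G3 Terc-/- replicate 2 gave -1.52 and -1.95. By the cutoffs, 2 of 2 were lower, beside 3.13% of all genes, and their median log2 fold change was -2.22, beside 0.01 over all genes tested.

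**Figure D2:**
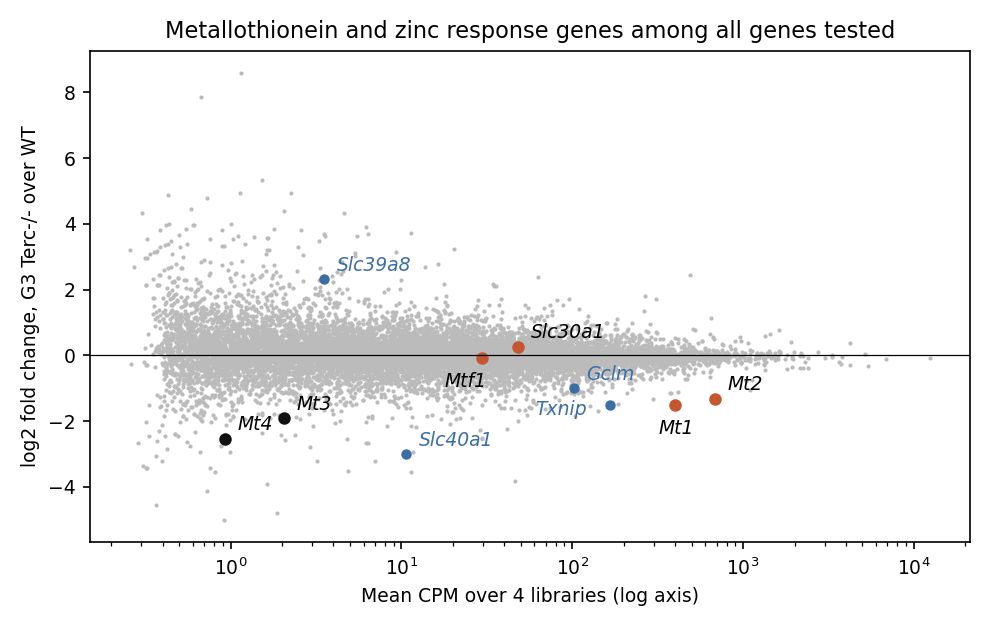
Log2 fold change (G3 Terc-/- over WT) against the mean level in CPM over the 4 libraries (log axis) for each gene tested, in grey. Orange marks Mt1, Mt2, Mtf1 and Slc30a1, black marks Mt3 and Mt4, and blue marks 4 other genes named in the text, with Mt1 at -1.50 and Mt2 at -1.32 among the few abundant genes that far below 0.

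Around the cluster, the shares of genes called were near those of all genes tested. Within 1 Mb of the start of Mt1, 25 of 38 genes were tested, and 6 came out higher and 5 lower by adjusted p, where 21.7% and 21.8% of all genes tested were higher and lower. Mt3 and Mt4 were among the lower genes, and without them the median log2 fold change of the other 23 was 0.05. Nup93, a nuclear pore gene 35.7 kb beyond the start of Mt1, had 234 and 238 CPM in WT, against 257 and 244 CPM in G3 Terc-/- libraries (log2 fold change 0.08, standard error 0.05, adjusted p = 0.177 by edgeR). Nup93 passed as higher without G3 Terc-/- replicate 2, at 0.12 (edgeR adjusted p = 0.0246), and was at 0.04 without G3 Terc-/- replicate 1. Around Mtf1, 2 of 21 tested genes were higher and 4 were lower, with a median of -0.09, and the nearest were 1110065P20Rik (-0.36, standard error 0.15, edgeR adjusted p = 0.0414), Yrdc (-0.06) and Maneal (-0.13). 1110065P20Rik did not pass with DESeq2, with at least 10 counts in every library, without G3 Terc-/- replicate 1 (-0.29, edgeR adjusted p = 0.176) or without WT replicate 2 (-0.16, edgeR adjusted p = 0.542). Around Slc30a1, itself at 0.26, 7 of 21 tested genes were higher and 1 was lower, with a median of 0.13. The higher genes included 1700034H15Rik, which overlaps exons of Slc30a1 and may share its reads, and which did not pass with DESeq2. The mitotic kinase gene Nek2, 85.2 kb before Slc30a1, was at 127 and 133 CPM in WT, against 156 and 163 CPM in G3 Terc-/- libraries (log2 fold change 0.29, standard error 0.05, edgeR adjusted p = 1.88e-05). With DESeq2 the counts around Slc30a1 came to 2 higher and 1 lower, and those around Mtf1 to 0 higher and 1 lower. Leaving out libraries moved the lower count around Mt1 from 5 to 8 (G3 Terc-/- replicate 1), the higher count around Slc30a1 from 7 to 4 (G3 Terc-/- replicate 2, or WT replicate 1), and the counts around Mtf1 to 2 higher and 1 lower (G3 Terc-/- replicate 1, or WT replicate 2) or 0 higher and 2 lower (WT replicate 1).

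**Figure D3:**
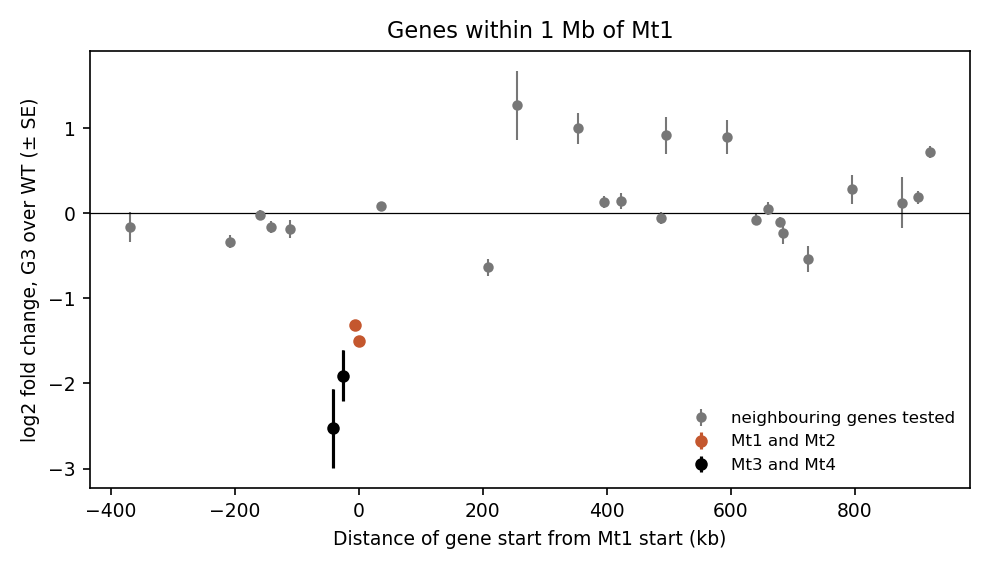
Log2 fold change (G3 Terc-/- over WT, with its standard error) of tested genes against the distance in kb of their start from that of Mt1, with Mt1 and Mt2 in orange, Mt3 and Mt4 in black and other genes in grey. Mt1 to Mt4 lie between -2.53 and -1.32, while the other genes of the window scatter around 0 with a median of 0.05.

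Apart from Slc39a8, the remaining zinc transporters that changed did so by small amounts and in both directions. ZnT proteins of the SLC30 family carry zinc out of the cytosol, and ZIP proteins of the SLC39 family carry it in. Of 9 tested ZnT genes besides Slc30a1 (10 listed), 1 came out higher and 2 lower by adjusted p, beside 21.7% and 21.8% of all genes, with a median log2 fold change of 0.07. The list also holds the zinc exporter gene Tmem163, which is not an SLC30 gene and was not called. Of the 9 tested genes 0 passed the cutoffs, beside 7.85% of all genes in either direction. Slc30a7 of the Golgi was higher (0.23, standard error 0.09, edgeR adjusted p = 0.0284). Slc30a9 (-0.26, standard error 0.07, edgeR adjusted p = 0.00298) and Slc30a5, of the secretory pathway (-0.16, standard error 0.07, edgeR adjusted p = 0.0472), were lower. None of these 3 passed without WT replicate 2, when the list counted 0 in both directions. Slc30a7 missed also without G3 Terc-/- replicate 1, at 0.19 (edgeR adjusted p = 0.129), and Slc30a5 missed whichever of the 4 libraries was left out. With DESeq2 the list counted 0 higher and 1 lower.

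Among 11 tested ZIP genes (14 listed), 3 came out higher and 2 lower by adjusted p, with a median of 0.08, a share called near the 43.5% of all genes in either direction. Slc39a8, which encodes ZIP8, an importer of zinc and manganese, was the 1 gene higher by the cutoffs, beside 4.73% of all genes. It had 33 and 19 counts in WT, against 136 and 103 counts in G3 Terc-/- libraries, or 1.51 and 0.857 against 6.13 and 5.65 CPM, without overlap. Its log2 fold change was 2.31 with a standard error of 0.24 (edgeR adjusted p = 1.09e-10), a 4.97-fold higher level. Slc39a9 was higher (0.30, edgeR adjusted p = 0.00259) and Slc39a14, an importer of zinc and iron, was lower (-0.15, edgeR adjusted p = 0.0310), and both missed without WT replicate 2, at 0.22 (edgeR adjusted p = 0.118) and -0.11 (edgeR adjusted p = 0.351). Slc39a14 missed also without WT replicate 1 and without G3 Terc-/- replicate 1. The ZIP list counted 1 higher and 0 lower without WT replicate 2, 2 higher and 0 lower without WT replicate 1 and with DESeq2, and 1 lower without either G3 Terc-/- replicate.

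Among other genes that MTF1 is known to act on, 6 were tested (7 listed), of which 1 was higher and 2 were lower by adjusted p, with a median of 0.09. The list was not split by whether MTF1 raises or lowers a gene, and MTF1 activity was not tested. Slc39a10 and Slc30a2 of this list are also counted among the ZIP and ZnT genes. Over all genes 43.5% were called in either direction, so the share called in this list was near the background. The largest change was in Slc40a1, which encodes the iron exporter ferroportin. Slc40a1 had 359 and 473 counts in WT, against 48 and 47 counts in G3 Terc-/- libraries, or 16.4 and 21.3 against 2.16 and 2.58 CPM. This is a log2 fold change of -3.002 with a standard error of 0.16 (edgeR adjusted p = 2.16e-19), or 8.01-fold lower. Gclc, the catalytic subunit of the enzyme that starts glutathione synthesis, was lower (-0.43, edgeR adjusted p = 5.77e-08). Selenow, a selenoprotein gene, was higher (0.26, edgeR adjusted p = 0.00302), but at 0.15 without WT replicate 2 (edgeR adjusted p = 0.248), when 0 of the list were higher.

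Copper and iron handling genes were counted as further lists of metal genes. Of 12 tested copper handling genes (14 listed besides Mtf1), 4 were higher and 1 was lower by adjusted p, beside 21.7% and 21.8% of all genes, with a median of 0.08. The transporter gene Slc31a2 (0.83, edgeR adjusted p = 2.44e-06) and the copper pump gene Atp7a (0.43, edgeR adjusted p = 4.35e-05) were higher, and the copper chaperone gene Atox1 was lower (-0.37, edgeR adjusted p = 0.000127). With DESeq2, and in edgeR without WT replicate 2, the copper list counted 2 higher. Of 14 iron handling genes, 6 were lower and 2 were higher, beside 21.8% lower and 21.7% higher over all genes, with a median of -0.17. Slc40a1, described above, is among the 6 and was the 1 gene of this list past the cutoffs. The ferritin heavy chain gene Fth1, which stores iron, was at 570 and 569 CPM in WT, against 397 and 364 CPM in G3 Terc-/- libraries (log2 fold change -0.58, standard error 0.05, edgeR adjusted p = 3.67e-13). The transferrin receptor gene Tfrc, which takes iron up, was at 306 and 310 CPM in WT, against 187 and 204 CPM in G3 Terc-/- libraries (-0.66, standard error 0.05, edgeR adjusted p = 3.71e-14). The iron genes that were higher were Steap3, a metalloreductase gene, and Pcbp1, an RNA-binding protein gene that also serves as an iron chaperone.

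Most of the listed genes of the oxidative stress response were lower in G3 Terc-/- ESCs. NRF2, encoded by Nfe2l2, is the transcription factor that turns on glutathione and thioredoxin genes under oxidative stress. Of the 17 genes listed and tested, 13 were lower and 0 were higher by adjusted p (1 higher at an unadjusted p under 0.05, 0 with DESeq2, 1 without G3 Terc-/- replicate 1), beside 21.8% and 21.7% of all genes, and their median log2 fold change was -0.35. Gclm, the modifier subunit of glutathione synthesis, was at 120 and 151 CPM in WT, against 67.9 and 67.5 CPM in G3 Terc-/- libraries (log2 fold change -1.01, standard error 0.07, edgeR adjusted p = 7.77e-16). It was the 1 gene of the list past the cutoffs, at just over 2-fold. Gclm fell short of 2-fold without G3 Terc-/- replicate 2 (-0.999) or WT replicate 2 (-0.83), and in the latter setting another gene of the list lay past the cutoffs. The autophagy receptor gene Sqstm1 (-0.73, edgeR adjusted p = 1.06e-15) and the thioredoxin reductase gene Txnrd1 (-0.50, edgeR adjusted p = 1.06e-11) were lower as well. The lower genes included Nfe2l2 itself, its inhibitor gene Keap1, Nqo1, Hmox1, Gclc, Srxn1, Gsr, G6pdx, Tkt and Txn1. The 4 that did not pass were Slc7a11, Prdx1, Taldo1 and Me1.

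Glucocorticoids and heat shock also induce metallothionein genes in other settings. Of 9 tested glucocorticoid response genes (10 listed), 5 were lower and 2 were higher, beside 21.8% lower and 21.7% higher over all genes, with a median of -0.24. The clock gene Per1 (-0.71, edgeR adjusted p = 2.09e-09) and the phosphatase gene Dusp1 (-0.36, edgeR adjusted p = 1.34e-06) were lower, whereas Nr3c1, which encodes the glucocorticoid receptor, was higher (0.76, edgeR adjusted p = 1.27e-08). Tsc22d3, a glucocorticoid target named after its values were seen, was the 1 gene of the list past the cutoffs (-1.08, edgeR adjusted p = 0.00103), and the count past them was 0 without G3 Terc-/- replicate 1 or WT replicate 2. Without WT replicate 1 or G3 Terc-/- replicate 1, 1 gene of this list was higher. Of 15 heat shock genes, 4 were lower, a share near the background, and 1 was higher, beside 21.8% lower and 21.7% higher over all genes, with a median of -0.09. Hsf2, a heat shock factor gene (-0.49, edgeR adjusted p = 5.56e-08), and the chaperone gene Hsp90aa1 (-0.33, edgeR adjusted p = 1.74e-07) were lower, and Hspb1, a small heat shock protein gene, was higher (0.29, edgeR adjusted p = 6.75e-06). The higher count was 3 without G3 Terc-/- replicate 2 and 2 without WT replicate 1.

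LIF, which was in the medium of both genotypes, acts through STAT3, a factor that can also raise metallothionein genes. Of 12 genes of this response, 7 were lower and 2 were higher, beside 21.8% lower and 21.7% higher over all genes, with a median of -0.25. Pim1, a kinase gene (-0.55, edgeR adjusted p = 7.11e-12), and Bcl3, a transcriptional coregulator gene (-0.72, edgeR adjusted p = 9.14e-10), were lower. The pluripotency factor genes Tfcp2l1 (0.80, edgeR adjusted p = 9.50e-18) and Klf4 were higher, and Stat3 itself was at 117 and 125 CPM in WT, against 121 and 121 CPM in G3 Terc-/- libraries.

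**Figure D4:**
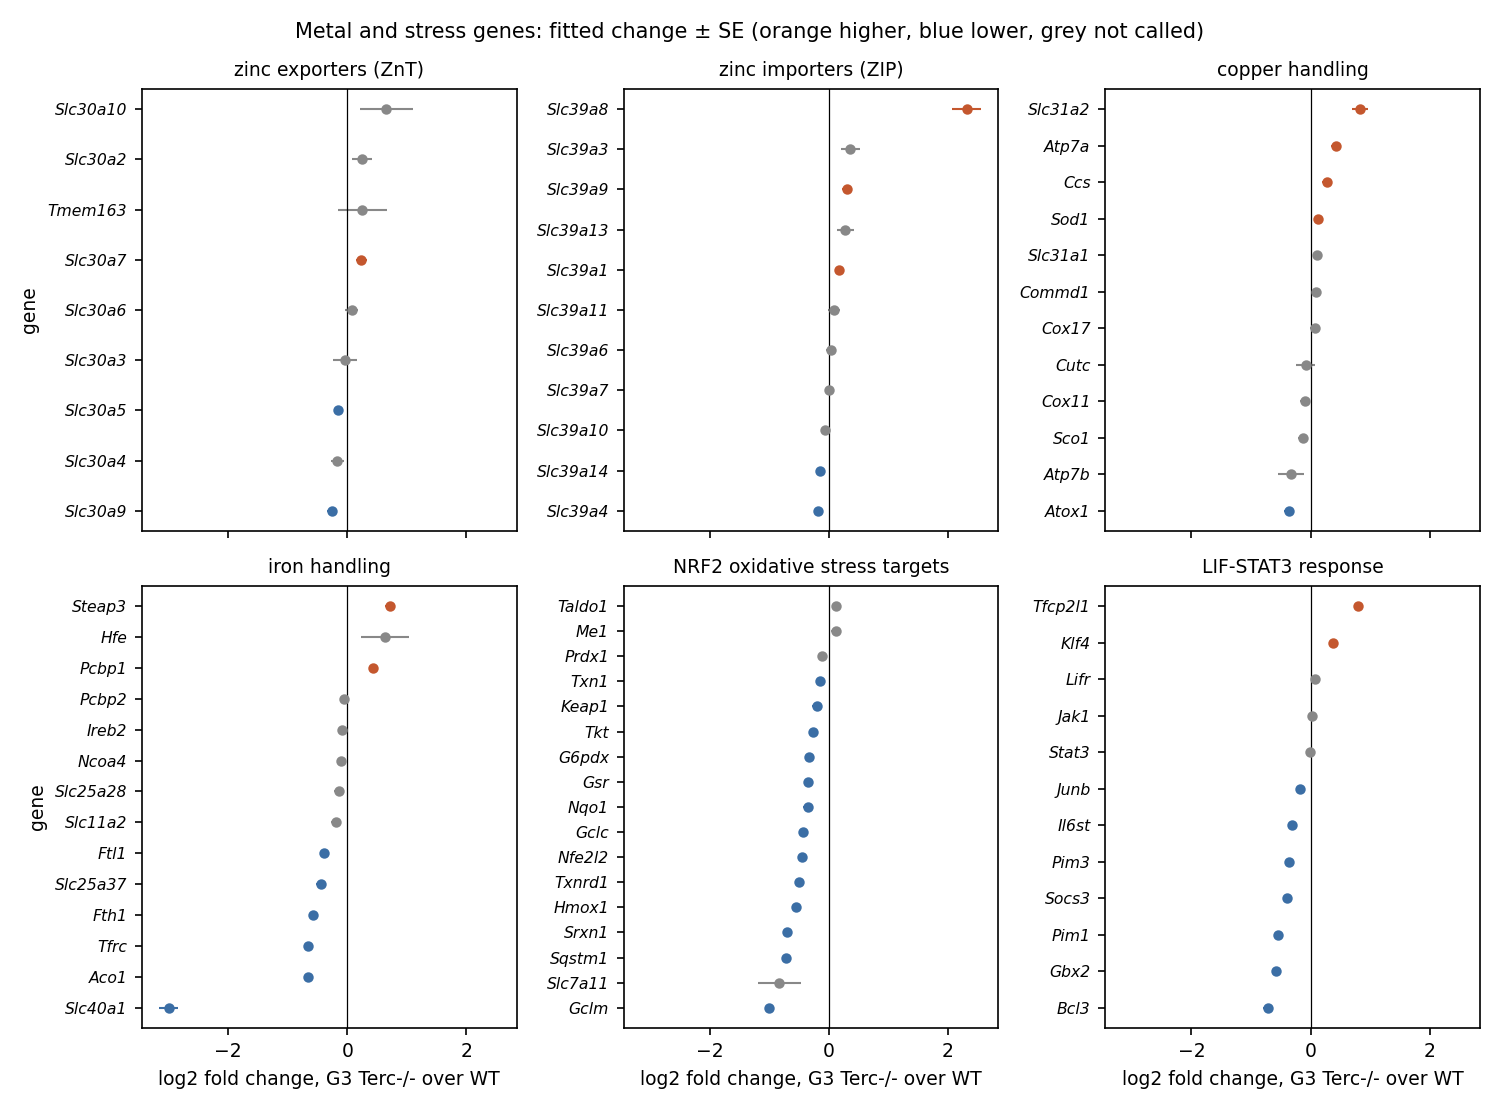
Log2 fold change (G3 Terc-/- over WT) with its standard error for each tested gene of the ZnT, ZIP, copper, iron, NRF2 and LIF-STAT3 lists, 1 panel per list, in orange where higher, blue where lower and grey where not called by adjusted p. In the NRF2 panel 13 of 17 genes are blue, whereas the ZnT and ZIP panels, with medians of 0.07 and 0.08, have most genes grey around 0.

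Markers of the cells in the culture were counted in the same way. All 12 pluripotency marker genes were detected, with 9 higher and 3 lower in G3 Terc-/- ESCs by adjusted p, beside 21.7% and 21.8% of all genes, and a median of 0.38. The summed level of the list was 6566 and 6672 CPM in WT, against 8100 and 8442 CPM in G3 Terc-/- libraries, Tdgf1 being its most abundant gene (log2 fold change 0.66, edgeR adjusted p = 1.36e-15). Pou5f1, which encodes OCT4, was at 932 and 934 CPM in WT, against 1209 and 1223 CPM in G3 Terc-/- libraries (0.38, edgeR adjusted p = 4.07e-09). Nanog was higher (1.13, edgeR adjusted p = 4.74e-23) and Dppa5a was lower (-0.79, edgeR adjusted p = 7.78e-18). Nanog lies on chromosome 6, as do Pcbp1 of the iron list and Col1a2 of the feeder list. The study reports that part of this chromosome was deleted in G3 Terc-/- ESCs. Whether gene copy number bears on the levels of these genes was not tested.

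Of 23 tested feeder fibroblast markers (24 listed, none at 0 in every library), 10 were higher and 1 was lower by adjusted p, beside 21.7% and 21.8% of all genes, with a median of 0.41. Their summed level was 2087 and 1759 CPM in WT, against 2825 and 2444 CPM in G3 Terc-/- libraries. Fn1, which encodes fibronectin, was the most abundant of them, at 1138 and 1008 CPM in WT, against 1696 and 1506 CPM in G3 Terc-/- libraries (0.58, edgeR adjusted p = 3.87e-12), and is made by other cells too. Fstl1 (1.11, edgeR adjusted p = 2.15e-20) and Col5a1 (0.58, edgeR adjusted p = 1.02e-05) were also higher. Fstl1 was at 122 and 109 CPM in WT, against 246 and 252 CPM in G3 Terc-/- libraries, where replicate 2 was the higher one. Col5a1 did not pass with DESeq2 and was at 0.32 without G3 Terc-/- replicate 1, 0.36 without WT replicate 2, 0.78 without G3 Terc-/- replicate 2 and 0.83 without WT replicate 1. The other markers called higher were Col3a1, Col6a1, Col6a3, Thy1, Dcn, Pdgfrb and Fbn1, and the lower one was Tagln. The collagen I genes Col1a1 and Col1a2 did not pass, but both passed as higher with the replicate number as a block. Col1a1 was at 60.6 and 35.5 CPM in WT, against 63.8 and 43.0 CPM in G3 Terc-/- libraries. Col1a2 was at 50.01 and 31.2 CPM in WT, against 56.9 and 36.0 CPM in G3 Terc-/- libraries. Both differed more within a genotype than between the genotype means, and replicate 1 was the higher one in both genotypes. They passed as higher without WT replicate 1, at 0.59 and 0.58, and without G3 Terc-/- replicate 2, at 0.41 and 0.49. They turned to -0.16 and -0.18 without G3 Terc-/- replicate 1 and to -0.18 and -0.10 without WT replicate 2. The count of higher feeder markers was 3 without G3 Terc-/- replicate 1, 5 without WT replicate 2, 17 without G3 Terc-/- replicate 2, 16 without WT replicate 1 and 4 with DESeq2. The lower count was 3 without G3 Terc-/- replicate 1 or WT replicate 2 and 0 without either of the others. The part of feeder RNA in the levels of Mt1 and Mt2 was not tested.

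Genes were also ordered by how closely their pattern over the 4 libraries followed that of Mt1. Likeness was the Euclidean distance in log2 CPM after the mean of the WT libraries was subtracted from each gene, over 12176 genes that averaged 50 counts or more. Txnip, the gene of a thioredoxin-interacting protein that limits glucose uptake, was the nearest, at a distance of 0.03. It had 5450 and 5408 counts in WT, against 1877 and 1656 counts in G3 Terc-/- libraries, a log2 fold change of -1.49. The non-coding gene Snhg11 followed at 0.07, with 692 and 715 counts in WT, against 236 and 218 counts in G3 Terc-/- libraries. Gm15441 stood at 0.07 as well, with 1991 and 1988 against 726 and 596 counts, and it overlaps all 3901 bases of Txnip on chromosome 3, so reads of these genes may not be told apart. Mt2 was the 48th nearest gene, at 0.27. These genes were picked by their values in the same libraries, and the distances are a description.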

How the data were processed

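RNA-seq counts per gene of 2 WT and 2 G3 Terc-/- ESC libraries were used. The deposited counts were made by the authors from 150 bp paired-end reads aligned to mm10 with STAR, and the submitters' processing notes also name Trim Galore and featureCounts. They are raw counts without normalization. The annotation is not given in the sources used here. Counts of repeat copies were not used here.

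Of 24116 rows, 24061 were matched to a symbol by NCBI identifier. Fold changes were computed with edgeR 4.0.16 in R 4.3.3 (TMM, filterByExpr, the quasi-likelihood test and a model of genotype alone), and adjusted p-values are Benjamini-Hochberg values over 14896 genes. The study called changed genes with Cufflinks, which was not repeated. With 2 libraries against 2, a two-sided exact permutation test of 1 value cannot go below p = 0.333. Lack of overlap between the genotypes is therefore weak by itself, and genes that were not called, such as Nup93, also lacked it. Exon lengths are unions of exons of GENCODE vM21 transcripts with a RefSeq match. CPM used TMM-scaled library sizes. Figures were drawn with matplotlib 3.10.9.

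The genes and lists were chosen with earlier results of these data known. Named are Terc, the metallothionein genes, Mtf1, Slc30a1, the 3 most significant genes per list (or fewer, at an adjusted p under 0.05), chosen marker genes, up to 3 nearest neighbours per locus, and the 3 genes most like Mt1. Other genes of a list, Gm45774 and the overlapping genes are named after their values or positions were seen. Replicates were not duplicates: chi-square per gene was 2.41 (WT) and 3.60 (G3 Terc-/-). Alternatives were DESeq2 1.42.0, its size factors in edgeR, no filter, at least 10 counts in every library, the replicate number as a block, and each library left out in turn, which assumes that the lone library varies like the other genotype. The fits were also run on simulated counts with known changes, and no result given here rests on that run.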

Additional observations from a re-analysis of the deposited data

How the results depend on the processing

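The log2 fold changes kept their sign for Mt1 (-1.53 to -1.47 with 1 library left out), Mt2 (-1.40 to -1.25) and Slc30a1 (0.15 to 0.37) under the 9 settings run, and Mtf1 went from -0.21 to 0.0349. Of all genes, 704 higher at the cutoffs became 436 with at least 10 counts in every library, while by adjusted p at any fold 3238 were higher and 3241 lower. That filter removed Mt4, so that 1 metallothionein was lower by both rules. It also gave 1 lower ZnT gene and 1 lower ZIP gene by adjusted p. Past the cutoffs it gave 0 NRF2 genes, 1 higher feeder marker, and 2 higher and 1 lower genes around Mt1.

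DESeq2 gave 0 higher and 1 lower ZnT genes, 0 lower ZIP genes, 2 higher copper genes, 1 higher glucocorticoid gene, 4 higher and 0 lower feeder markers (1 past the cutoffs), 0 higher and 1 lower genes around Mtf1 and 2 higher genes around Slc30a1. Without a filter Col1a2 passed as higher, and there was 1 higher copper gene past the cutoffs and there were 2 higher heat shock genes. Same-numbered libraries share only a number (correlation of their deviations 0.06), and with the replicate block 700 genes were higher and 461 lower, 0 NRF2 genes were lower past the cutoffs, 1 NRF2 gene was higher and 2 heat shock genes were higher, and Col1a1 and Col1a2 passed as higher at 0.16 and 0.20.

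With 1 library left out, counts by adjusted p ranged over 0 to 1 (ZnT genes, either direction), 1 to 3 higher and 0 to 1 lower (ZIP), 0 to 1 higher (MTF1 targets, NRF2), 2 to 5 higher (copper), 1 to 3 higher (heat shock), 1 to 2 higher (glucocorticoid), and 3 to 17 higher and 0 to 3 lower (feeder markers). Around the genes they ranged over 4 to 8 lower (Mt1), 0 to 2 higher and 1 to 5 lower (Mtf1), and 4 to 6 higher and 1 to 2 lower (Slc30a1). Past the cutoffs they ranged over 0 to 1 higher (ZnT, copper, around Mtf1), 0 to 1 lower (NRF2, glucocorticoid), 0 to 1 in either direction (around Slc30a1), and 1 to 4 higher (feeder markers, around Mt1). Single genes that changed sign without G3 Terc-/- replicate 1 and without WT replicate 2 were Col1a1 (-0.16 and -0.18, range to 0.59), Col1a2 (-0.18 and -0.10, range to 0.58) and Yrdc (0.00598 and 0.0696), none of which passed the test in those settings. The causes were not tested. Low counts limit Terc, Mt3, Mt4 and Slc39a8, and exon overlaps limit Mt2, Mtf1 and Slc30a1.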
